A study of Onthophagus taurus and Onthophagus nigriventris with 71 samples.

Results

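The prothorax of Onthophagus nigriventris, the body segment on which this beetle carries its horn, was compared between large and small males. The comparison rested on 12 microarrays of the 71 in the study, 5 of large, horned males and 7 of small, sneaker males, chosen by their titles. Each array compared dorsal prothoracic epidermis with dorsal abdominal epidermis of the same sex and morph, and each RNA pool held tissue from 4 wild-type, laboratory-reared pupae within 24 h of pupation. A further 7 arrays of O. nigriventris females over a range of sizes, also thorax against abdomen, entered the fit so that all 19 arrays of the species shared 1 estimate of the spread. The other 52 arrays were of O. taurus, a species whose large males carry head horns, and were used for comparison. They held 48 arrays of head, thorax, legs and brain of females, large males and small males. Brain was compared with ganglia and the other tissues with abdomen. On the last 4 arrays large and small male heads shared a slide. Their pools also held 4 individuals within 24 h of pupation. The head and thorax arrays served the main comparisons. The arrays had been designed from O. taurus, so every O. nigriventris value came from hybridisation of one species' RNA to the other species' probes.

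Beetle horns are outgrowths of the epidermis that form shortly before and are remodelled during the pupal stage. In many Onthophagus species the size of the adult horn depends on larval nutrition, so that well-fed males grow long horns and fight for access to females while small males keep short horns or none and sneak matings. Pupae often carry a thoracic horn even where the adult does not, because the tissue can be resorbed before the adult emerges. Genes that pattern appendages, the insulin pathway and the sex-determination gene doublesex are known to take part in horn growth in this genus. The probes here carry only plate names, and 0 of the 3840 matched a gene of the 16956 in the RefSeq annotation of O. taurus. No gene could be named from them, the planned lists of patterning, insulin, hormone, cuticle and muscle genes could not be counted, and the labelled tissues could not be checked against markers. Names beginning with OtL or OtP stand for 1920 probes each.

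The value of a probe on an array was the log2 ratio of thorax and abdomen. The numerator was not stated. The design wording makes thorax over abdomen likely, so that positive values stand for more RNA in the thorax, whereas under the other direction every sign would turn. The ratios of both dye orientations already ran the same way, since the mean of the orientations correlated with the O. taurus thorax ratios at r = 0.729 across 3840 probes, and the difference of the orientations at 0.0127. A positive difference between morphs means a higher ratio in large males, which can come from the thorax, from the abdomen or from both.

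Arrays of the same dye orientation correlated with a mean r of 0.476 and arrays of opposite orientation with 0.166 among the 66 pairs of male arrays. The thorax was labelled with Cy5 on 3 large and 4 small male arrays and with Cy3 on 2 large and 3 small male arrays. Among the small males, array 4 had a standard deviation of 0.494 across probes, while the other male arrays lay between 0.934 and 1.19. Array 3 of the same group had the lowest mean correlation with arrays of its own orientation, 0.362. With arrays of the opposite orientation array 4 had the highest mean correlation, 0.423, and array 3 the lowest, 0.011. With the O. taurus thorax ratios array 4 likewise correlated highest, at 0.642, and array 3 lowest, at 0.281. Female array 3, which entered the fit, had a standard deviation of 0.610. The main counts are also given without small male arrays 3 and 4, while no fit left out a single female array. The labels did not state whether the pools were reared apart, so the tests below rest on the variation among these pools, which may be technical.

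The first question was which probes differed between the male morphs. In limma's test, 0 of 3840 probes (0%) passed an adjusted p of 0.05, and the smallest adjusted p was 0.176. At an unadjusted p under 0.05 there were 266 probes (6.93%), of which 151 (3.93%) were positive and 115 (2.99%) negative, and 192 would be found in the absence of any difference. With every array scaled to the same spread the 266 became 185, and without small male arrays 3 and 4 they became 228. Differences over 1 on the log2 scale, a 2-fold change of the ratio, were measured for 125 probes (3.26%), 67 positive (1.74%) and 58 negative (1.51%), and without small male arrays 3 and 4 for 143. The median half-width of a probe's 95% confidence interval was 0.74, so a difference of up to that size could not be told from 0 for the typical probe. The number of arrays and the scatter among them both limit this precision. The root mean squared standard error of the morph difference was 0.391 here and 0.254 in the O. taurus head, with 4 arrays per morph.

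**Figure D1:**
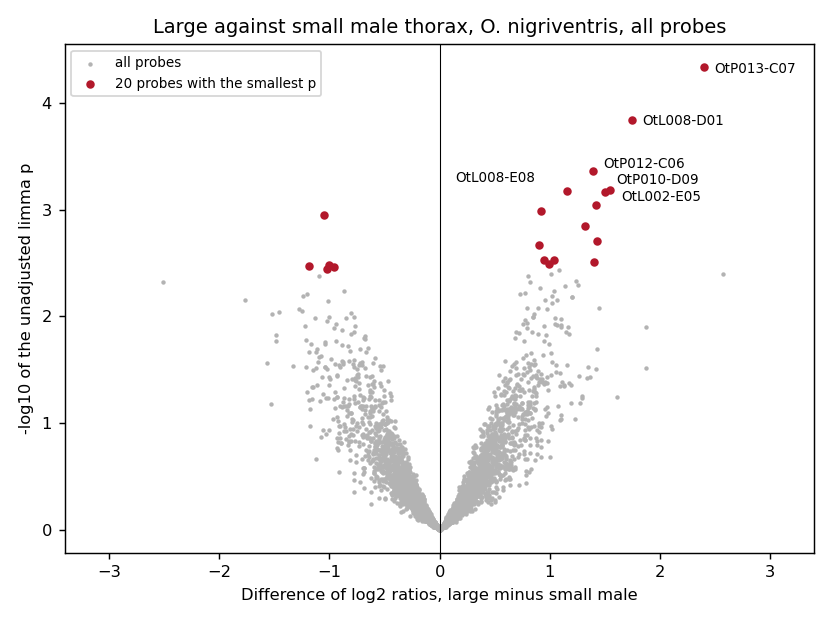
Each point is 1 of the 3840 probes. The x axis is the difference of log2 ratios, large minus small males, and the y axis is -log10 of the unadjusted limma p. Red points are the 20 probes with the smallest p, 15 of them positive, and OtP013-C07 lies highest with a difference of 2.40.

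The 20 probes with the smallest p are described below, although none of them passed the adjusted threshold (adjusted p 0.176 to 0.622 by limma). Among them 15 were positive, with differences from 0.90 to 2.40, and 5 were negative, from -0.96 to -1.19. OtL names stood for 8 of them and OtP names for 12.

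OtP013-C07 had the smallest p and the largest difference of the 20. Its log2 ratios were 2.54, 4.70, 5.43, 1.78 and 3.87 on the large male arrays, against a lowest of 0.20, a median of 1.14 and a highest of 2.92 on the 7 small male arrays. All 5 large male values exceeded the small male median, and the groups overlapped only through small male array 7, which lay above large male arrays 1 and 4. The means were 3.66 ± 1.504 (SD, n = 5) in large males and 1.24 ± 0.92 (SD, n = 7) in small males. The difference was 2.40 ± 0.47 (SE), with a 95% interval from 1.42 to 3.37, a 5.27-fold higher ratio in large males (limma, unadjusted p = 4.58e-05, adjusted p = 0.176). Without large male array 4 it was 2.76, with an adjusted p of 0.0372 by limma, and over all alternatives the adjusted p ran from 0.0172 to 0.976. Within arrays with the thorax in Cy5 the difference was 3.20 ± 0.59 and within arrays with the thorax in Cy3 it was 1.22 ± 0.51 (SE), in both cases with every large male array above every small male array. The change of the difference with dye orientation had an unadjusted p of 0.0312 and an adjusted p of 0.804 by limma. Thorax and abdomen differed in both morphs for this probe, by 3.56 in large males (adjusted p = 4.09e-07) and by 1.17 in small males (adjusted p = 0.0107, limma).

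OtP010-D09 tracked OtP013-C07 closely. Its log2 ratios were 1.99, 1.35, 3.59, 1.90 and 3.81 in large males, against 0.45 to 1.43 with a median of 1.24 in small males. A single large male value, on array 2, fell inside the small male range. The means were 2.53 ± 1.10 (SD, n = 5) in large males and 1.02 ± 0.44 (SD, n = 7) in small males, and the difference was 1.502 ± 0.38 (SE; limma, unadjusted p = 6.73e-04, adjusted p = 0.431), or 0.99 with every array scaled to the same spread. Over the 52 O. taurus arrays the ratios of OtP010-D09 and OtP013-C07 correlated with r = 0.966, and over the 19 O. nigriventris arrays with r = 0.803, points that share tissue, sex and morph. The 52 arrays also mix tissues and kinds of ratio, so r over them reflects differences between these kinds too. Whether the pair report the same gene was not tested.

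OtL008-D01 had the second smallest p. Large males had log2 ratios of 0.29, 2.74, 1.72, 1.54 and 1.70, against a lowest of -1.63, a median of -0.04 and a highest of 0.57 in small males. Large male array 1 was the one value inside the small male range, and small male array 3 lay far below the rest of its group. The difference was 1.74 ± 0.38 (SE), with an adjusted p of 0.276 by limma, and it was 1.53 without small male arrays 3 and 4. Thorax and abdomen differed in large males, by 1.55 (adjusted p = 6.02e-04), and the small male value of -0.19 did not pass (adjusted p = 0.697, limma).

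OtP012-C06 and OtP014-F12 had ratios that correlated with r = 0.973 over the 52 O. taurus arrays of mixed kinds, the closest of any pair among the 20. For OtP012-C06 the large male values were 1.99, 2.99, 2.33, 2.30 and 3.44, against 0.75 to 2.45 with a median of 1.12 in small males. Small male array 7, at 2.45, was the one array of its group inside the large male range. For OtP014-F12 the values were 2.02, 3.01, 2.40, 2.06 and 3.73 in large males, against 0.53 to 2.62 with a median of 1.17 in small males, and again array 7 held the highest small male value. The differences were 1.39 ± 0.33 for OtP012-C06 and 1.32 ± 0.36 for OtP014-F12 (SE), with adjusted p of 0.431 and 0.549 by limma. OtP006-F02, which correlated with these probes at 0.828 and 0.848 over the O. taurus arrays, differed by 1.43 ± 0.40 (SE; adjusted p = 0.622 by limma), with 1.47, 4.51, 3.25, 2.54 and 2.23 in large males against -0.53 to 2.598, median 1.61, in small males. The groups of OtP006-F02 overlapped at 3 large male arrays. With every array scaled to the same spread the differences were 0.79 for OtP012-C06, 0.69 for OtP014-F12 and 0.66 for OtP006-F02, the last with an unadjusted p of 0.105 by limma. For all 3 probes the thorax and abdomen differed in both morphs in limma's test.

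OtL002-E05 was the one probe of the first 6 with negative small male values on every array. Large males had -0.74, 0.04, 0.50, 0.58 and 1.13, against a lowest of -2.72, a median of -1.13 and a highest of -0.60 in small males. Large male array 1 was the single overlapping value. The means were 0.30 ± 0.70 (SD, n = 5) in large males and -1.27 ± 0.72 (SD, n = 7) in small males, and the difference was 1.55 ± 0.39 (SE; adjusted p = 0.431 by limma), with 1.41 ± 0.52 within the Cy5 orientation and 1.75 ± 0.60 within the Cy3 orientation. Small males differed between thorax and abdomen (-1.34, adjusted p = 6.47e-04), and large males at 0.21 did not pass (adjusted p = 0.794, limma).

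**Figure D2:**
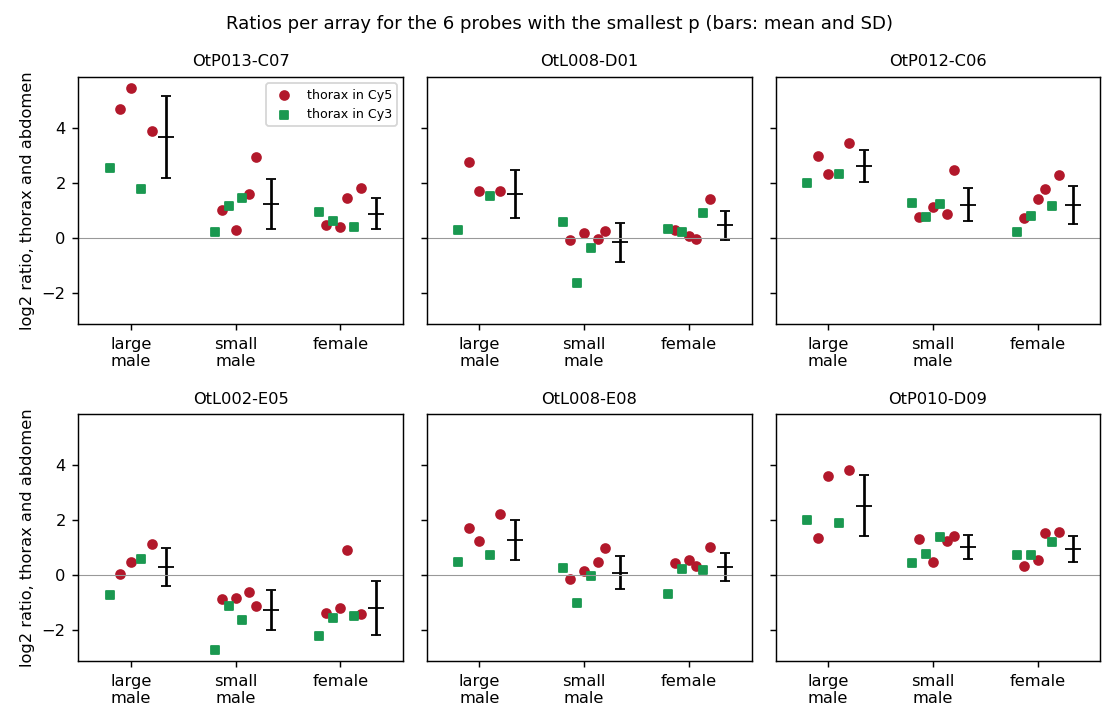
The y axis is the log2 ratio of thorax and abdomen, with 1 point per array, for the 6 probes with the smallest p. Large males (n = 5) are left of small males (n = 7) and females (n = 7), marker shapes give the dye of the thorax, and bars give the mean and SD. Large male values lie mostly above small male values in all 6 panels, and every panel shows some overlap.

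Another pair of like probes was OtL008-E08 and OtL015-C04 (r = 0.949 over the 52 O. taurus arrays). OtL008-E08 had 0.48, 1.73, 1.23, 0.72 and 2.22 in large males, against -1.001 to 0.9972 with a median of 0.14 in small males, a difference of 1.16 ± 0.29 (SE). OtL015-C04 had 0.71, 0.41, 0.38, 0.72 and 1.03 in large males, against -0.74 to 0.39 with a median of -0.37 in small males, a difference of 0.90 ± 0.26 (SE). The groups of OtL015-C04 met only at their edges, where small male array 1 at 0.39 passed large male array 3 at 0.38. Neither probe passed (adjusted p = 0.431 and 0.622 by limma).

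The groups did not overlap for 3 of the 20 probes, OtP012-F01, OtP009-A08 and OtP011-D07. Choosing the 20 by p favours groups that do not overlap, so nothing is read from this count. Over all probes 6 (0.156%) had groups that did not overlap, 3 with large males above (0.0781%) and 3 with large males below (0.0781%), and with the fewer arrays left without small male arrays 3 and 4 these were 6 and 6. OtP012-F01 had 0.49, 1.48, 1.03, 0.65 and 1.32 in large males, against -0.22 to 0.35 with a median of 0.14 in small males. Its small male values were the most tightly grouped of these 3 probes (SD 0.20, n = 7), and the difference was 0.92 ± 0.24, or 0.55 within the Cy3 orientation (SE; adjusted p = 0.480 by limma). OtP009-A08 had 0.43, 1.30, 0.33, 0.90 and 0.90 in large males, against -1.30 to 0.14 with a median of -0.09 in small males, a difference of 1.04 ± 0.31 (SE; adjusted p = 0.622 by limma). OtP011-D07 ran the other way, with -1.20, -0.75, -0.61, -0.38 and -1.72 in large males against -0.37 to 0.95, median 0.14, in small males. Its gap between the groups was narrow, -0.38 on large male array 4 against -0.37 on small male array 5, and the difference was -1.19 ± 0.36 (SE; adjusted p = 0.622 by limma).

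The other 4 negative probes were OtP018-H06, OtP015-G09, OtP001-E11 and OtL013-C10. OtP018-H06 had -1.16, 0.11, -0.45, -0.79 and 0.36 in large males, against -0.22 to 1.46 with a median of 0.52 in small males. Large males lay mostly below 0 and small males mostly above it, and the difference of -1.05 ± 0.28 (SE; adjusted p = 0.480 by limma) was nearly the same within the Cy5 orientation (-1.04) and the Cy3 orientation (-1.08). OtP001-E11 had 0.83, -0.32, 0.06, -0.13 and 0.18 in large males, against 0.54 to 1.75 with a median of 1.03 in small males, so that only large male array 1 reached the small male range. Here the small males differed between thorax and abdomen (1.08, adjusted p = 3.03e-04 by limma), while the large male value was 0.12 (adjusted p = 0.856 by limma). The difference of OtP001-E11 was -0.96 ± 0.29 (SE), and within the Cy3 orientation it was -0.55. OtP015-G09 differed by -1.004 ± 0.30 and OtL013-C10 by -1.02 ± 0.31 (SE), and the groups overlapped for both.

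The 4 positive probes not yet described were OtP005-E09, OtL011-H01, OtL018-C06 and OtL015-A12, with adjusted p of 0.480, 0.622, 0.622 and 0.622 by limma. OtP005-E09 had 1.31, 1.06, 1.31, -0.04 and 2.43 in large males, against -1.16 to 0.39 with a median of -0.10 in small males, a difference of 1.41 ± 0.37 (SE). OtL011-H01 had 1.66, 0.67, 1.69, 0.92 and 1.85 in large males, against -0.85 to 0.70 with a median of 0.08 in small males, a difference of 1.3985 ± 0.42 (SE). In both, 1 large male array lay inside the small male range. OtL018-C06 differed by 0.99 ± 0.30 and OtL015-A12 by 0.95 ± 0.28 (SE). Within the Cy3 orientation these differences were 0.66 for OtL018-C06 and 0.33 for OtL015-A12.

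Seen against the abdomen, the 20 probes fell into several kinds. Thorax and abdomen differed at an adjusted p under 0.05 by limma in large males alone for 9 of them, in small males alone for 5, in both morphs for 5 and in neither for 1. Over all 3840 probes the shares were 3.57% in large males alone, 5.99% in small males alone, 9.06% in both and 81.4% in neither. The 20 were chosen for a difference between these morphs, which favours a call in one of them alone, so nothing is read from these counts. The same choice favours a female mean between the male means, which was found for 16 of the 20 and for 41.6% of all probes. The female mean was nearer to the small male mean for 18 of the 20 and for 54.2% of all probes. Choosing by p also favours probes whose large male mean, which rests on fewer arrays, is the extreme one. Nothing is read from this count either. For OtP013-C07 females averaged 0.87 ± 0.56 (SD, n = 7), and female minus large male was -2.76 ± 0.47 (SE; adjusted p = 0.0287 by limma), the single probe called between females and large males (0.026% of 3840). This contrast uses the same large male arrays as the morph contrast. Between females and small males 0 probes (0%) were called by limma, and 138 (3.59%) had an unadjusted p under 0.05.

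The largest differences by size, chosen after their values were seen, mostly came with wide groups. OtP013-F04 differed most, by 2.57 ± 0.80 (SE), with 1.45, -0.28, 0.80, 6.74 and 0.64 in large males against -1.37 to 0.43, median -1.04, in small males. The value of 6.74 on large male array 4 lay far above the others, and the difference was 0.67 ± 0.44 within the Cy5 orientation and 5.33 ± 1.14 within the Cy3 orientation, to which that array belongs. OtP005-C01 differed by -2.51 ± 0.79 (SE), with 0.14, -1.56, -2.10, -0.05 and -0.76 in large males against -0.30 to 5.96, median 0.76, in small males, and the 5.96 was on small male array 5. Of the 10 largest differences, 7 were positive, 3 were also among the 20 with the smallest p, and 8 had an SD over 1.4 in large or in small males.

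The morph difference was next taken apart by dye orientation. Fitted alone, the arrays with the thorax in Cy5 gave 332 probes with an unadjusted p under 0.05 and the arrays with the thorax in Cy3 gave 174, with 0 adjusted calls by limma in each. Across the 3840 probes the differences of both orientations, which share no array, correlated with r = 0.0023 (Spearman's rho 0.0053). The sign was the same for 1912 probes (49.8%). Without small male arrays 3 and 4 the probes with an unadjusted p under 0.05 were 278 in the Cy5 and 179 in the Cy3 orientation, and r was -0.061. An unadjusted p under 0.05 was reached in both orientations by 16 probes, 9 with the same sign and 7 with opposite signs. The test of a change with orientation called 0 probes (0%) by limma, with 226 (5.89%) at an unadjusted p under 0.05.

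All 20 probes with the smallest p had the same sign in both orientations, a property that their choice on all arrays favours. The same choice favours groups that do not overlap within either orientation, which were found for 8 of the 20, 7 with large males above. Among all probes, large males were above in both orientations for 17 (0.443%), below in both for 12 (0.312%), and above in one and below in the other for 18 (0.469%).

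**Figure D3:**
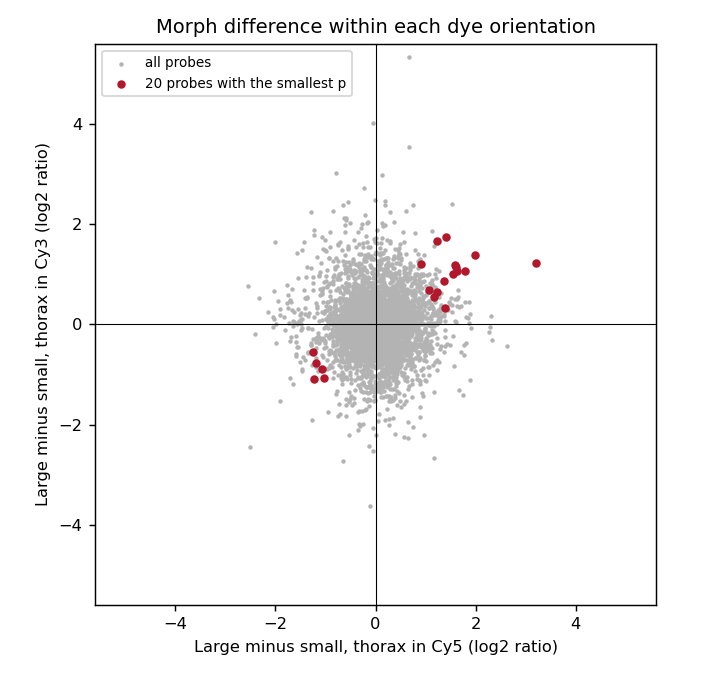
Each point is 1 of the 3840 probes. The x axis is the large minus small male difference of log2 ratios on arrays with the thorax in Cy5 and the y axis the same difference on arrays with the thorax in Cy3. The cloud has no slope (r = 0.0023), and the 20 probes with the smallest p, in red, lie in the quadrants of like sign.

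Much larger differences separated the tissues within each morph. In large males, 485 probes (12.6%) differed between thorax and abdomen at an adjusted p under 0.05 by limma, 270 positive (7.03%) and 215 negative (5.6%). In small males 578 (15.1%) did, 280 positive (7.29%) and 298 negative (7.76%). Both lists shared 348 probes, 71.8% of the large male list and 60.2% of the small male list, and all 348 had the same sign. Without small male arrays 3 and 4 the calls were 505 in large and 472 in small males, with 330 in both, again all of the same sign. Of the 137 called in large males alone, 118 had the same sign in small males, and of the 230 called in small males alone, 202 had the same sign in large males. Across all probes the ratios of the morphs correlated with r = 0.762, a description of estimates from 1 fit with a shared dye term.

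The probes with the largest tissue effects were high or low in both morphs. OtP008-D05 had a ratio of 4.59 ± 0.52 in large males and 4.29 ± 0.44 in small males (SE), a morph difference of 0.30 ± 0.68. OtL002-E09 had 4.59 ± 0.65 in large males and 3.81 ± 0.54 in small males (SE), although its ratio in the O. taurus thorax was 0.85. On the negative side OtL015-C02 had -4.29 ± 0.34 in large males and -3.46 ± 0.29 in small males, and OtL004-F05 had -4.11 ± 0.27 in large males and -3.44 ± 0.23 in small males (SE). None of these differed between the morphs at an unadjusted p under 0.05. OtP015-B09, at 4.04 ± 0.44 in large males and 2.62 ± 0.37 in small males, differed by 1.43 ± 0.57 (SE; limma, unadjusted p = 0.02001, adjusted p = 0.706). OtL011-A04, at -4.21 ± 0.37 in large males and -3.03 ± 0.31 in small males, differed by -1.18 ± 0.48 (SE; limma, unadjusted p = 0.0214, adjusted p = 0.706). OtL016-H05 ran the other way, with 3.24 ± 0.61 in large males and 4.77 ± 0.51 in small males (SE; adjusted p of the difference 0.723 by limma).

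**Figure D4:**
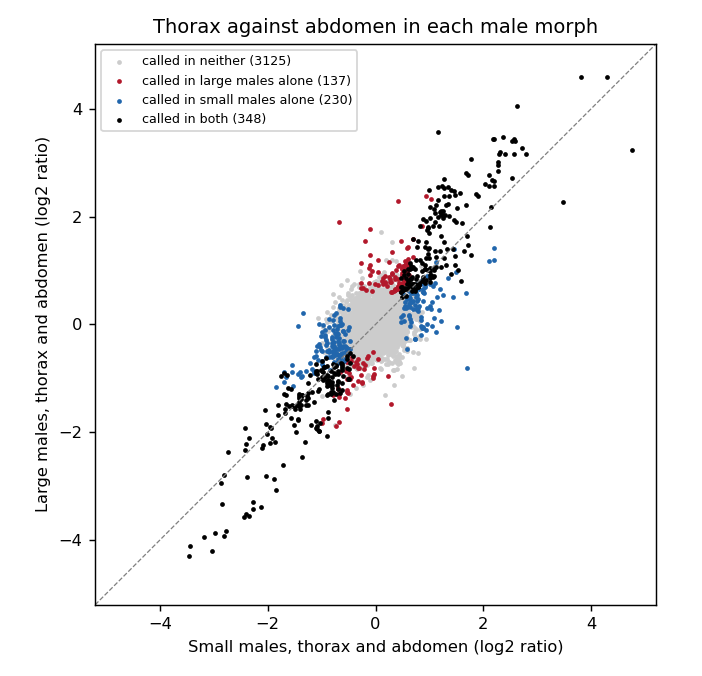
Each point is 1 of the 3840 probes. The x axis is the log2 ratio of thorax and abdomen in small males and the y axis that in large males, with colours for probes called in both morphs (348), in large males alone (137), in small males alone (230) or in neither. The dashed line marks equal ratios. The points follow 1 rising band (r = 0.762), and no probe called in both morphs lies in a quadrant of opposite signs.

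The size of the tissue effect was set side by side between the morphs after its values were seen. Of the 348 probes called in both, 259 (74.4%) had the larger size in large males. A call needs a larger effect in large males, whose root mean squared standard error was 0.300 against 0.253 in small males, so the choice of probes favours this direction. The share was 57.1% of 326 probes with every array scaled to the same spread, 65.8% of 310 without small male array 4 and 60% of 330 without small male arrays 3 and 4. It was 75.9% of 307 probes within the Cy5 orientation and 74.1% of 81 within the Cy3 orientation. Within 1 orientation a call against 0 also holds any dye effect, so those 307 and 81 probes are not calls of tissue alone. On probes chosen instead in the O. taurus thorax, with a called ratio over 2, 52 of 65 had a positive morph difference here (median 0.57), and of those with a called ratio under -2, 45 of 75 had a negative one (median -0.17). With every array scaled to the same spread the counts of both lists were 36 of 65 and 29 of 75. Scaling enlarged the ratios of small male array 4 the most, as its median absolute deviation, 0.289, was the smallest of the 19 arrays. The counts were 51 of 65 and 45 of 75 without small male array 4. Leaving out small male arrays 3 and 4 gave 47 of 65 and 43 of 75. Within the Cy5 orientation they were 51 of 65 and 42 of 75. Within the Cy3 orientation they were 41 of 65 (median 0.17) and 39 of 75 (median -0.016). Each array was also given 1 slope, that of its ratios on the O. taurus thorax ratios across probes. The slopes were 0.520, 0.464, 0.578, 0.486 and 0.772 in large males, against a lowest of 0.396, a median of 0.465 and a highest of 0.582 in small males. The groups overlapped, with means of 0.564 ± 0.124 (SD, n = 5) in large males and 0.481 ± 0.070 (SD, n = 7) in small males, and the difference of 0.083 had a two-sided p of 0.160 in the exact permutation test over the 792 ways of dividing the arrays.

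The design also set this species beside O. taurus, whose adult horns grow from the head. No array is shared between the species. For the same tissue, the morph difference in the O. nigriventris thorax minus that in the O. taurus thorax called 0 probes (0%) by limma, with 126 (3.28%) at an unadjusted p under 0.05 and a smallest adjusted p of 0.994. Against the O. taurus head, 2 probes (0.0521%) were called, OtL002-E05 and OtP018-H06. Species, tissue and the match of probe to RNA change together in this comparison, and their parts cannot be told apart. OtL002-E05 differed by 1.55 here and by 4.26 ± 0.22 (SE) in the O. taurus head, a difference of -2.71 ± 0.52 (SE; adjusted p = 0.0466 by limma). In the O. taurus head its ratio was 4.92 ± 0.30 in large males and 0.66 ± 0.53 in small males (SD, n = 4 each). OtP018-H06 had opposite signs in both tissues, -1.05 here and 1.04 ± 0.26 (SE) in the O. taurus head, a difference of -2.09 ± 0.42 (SE; adjusted p = 0.0466 by limma). Its O. taurus head ratios were 0.44 ± 0.47 in large males and -0.60 ± 0.55 in small males (SD, n = 4 each).

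Both calls depended on single arrays. That of OtL002-E05 was lost without large male array 1, 2 or 3 or small male array 2 or 6 of O. nigriventris, and without large male head array 1, 2 or 3 or small male head array 2 or 3 of O. taurus. Over all alternatives its adjusted p by limma ran from 0.00189 to 0.139 and its difference from -2.94 to -2.55. That of OtP018-H06 was lost without large male array 1, 2, 3 or 4 or small male array 2, 5, 6 or 7 of O. nigriventris, and without any large male head array or small male head array 1, 2 or 3 of O. taurus, with an adjusted p from 0.0107 to 0.152 and a difference from -2.33 to -1.74. Both were also lost without a dye term, and that of OtP018-H06 with only the groups compared. The number of called probes was 0 without several of these arrays and 21 without small male array 3.

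In O. taurus, 284 probes (7.4%) were called between large and small male heads by limma, 133 positive and 151 negative. Of the 133 positive probes, 82 (61.7%) were also positive here, with a median difference of 0.24, against 50% of all probes with a median that rounds to 0. At an unadjusted p under 0.05 there were 20 of them positive (15.0%) and 5 negative (3.76%), against 3.93% and 2.99% of all probes. Of the 151 negative probes, 80 (53.0%) were negative here, with a median of -0.04, and 12 were negative and 4 positive at an unadjusted p under 0.05. Among the 86 called probes with a head difference over 1, 60 (69.8%) were positive here, with a median of 0.42, and among the 44 with a difference under -1, 33 (75%) were negative, with a median of -0.52. Within the Cy3 orientation those counts were 53 of 86 and 20 of 44, and within the Cy5 orientation 66 of 86 and 33 of 44. Without small male arrays 3 and 4 they were 60 of 86 and 34 of 44, and for all called probes 82 of 133 and 81 of 151. These lists lean the same way as the tissue effect, since in the O. taurus thorax 62 of the 86 had a positive ratio and 36 of the 44 a negative one. Without the probes whose O. taurus thorax ratio was over 2, or under -2, the head lists gave 56 of 78 positive and 24 of 35 negative. The probes with a thorax ratio over 2 that lay outside the head list were positive here in 48 of 57 cases, and those under -2 outside it were negative in 36 of 66.

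Across all 3840 probes the morph difference correlated with that of the O. taurus head at r = 0.208 (Spearman's rho 0.117) and with the 4 O. taurus arrays that set large and small male heads on the same slide at r = 0.218. With the O. taurus thorax r was 0.097 (rho 0.009), with the legs 0.015 and with the brain -0.045. The spread of the O. taurus morph differences beyond their standard errors was 0.422 in the head and 0.084 in the thorax. It was 0 in the legs and 0 in the brain. Differences with so little spread beyond error can reach only a low r, so r does not rank the tissues. Probes are not independent replicates, and these values are descriptions.

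**Figure D5:**
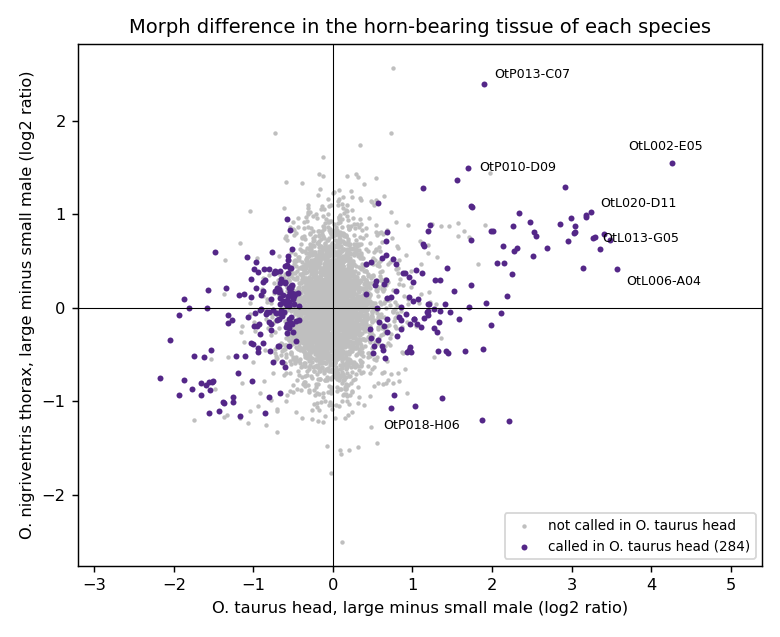
Each point is 1 of the 3840 probes. The x axis is the large minus small male difference of log2 ratios in the O. taurus head and the y axis that in the O. nigriventris thorax. The 284 probes called in the O. taurus head are purple, and OtL002-E05 lies furthest to the right at 4.26 on the x axis and 1.55 on the y axis, while OtP018-H06 lies at 1.04 on the x axis and -1.05 on the y axis.

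Earlier results of these data had singled out 8 probes for their morph difference in O. taurus, and their values here are a description. All 8 had the sign of the O. taurus head, as had 69.8% of called head probes over 1 and 75% of those under -1. An unadjusted p under 0.05 by limma was reached by 4 of the 8, and OtP013-C07 and OtP010-D09 vary together. Sizes here and in the O. taurus head differ in species, tissue and probe match at once, which cannot be told apart. OtP013-C07, OtP010-D09 and OtL002-E05 are described above, and OtP010-D09 was also the one probe of the 20 called between the morphs in the O. taurus thorax, at 1.41 (adjusted p = 0.00371 by limma). OtL020-D11 had 1.03, 2.16, 1.54, 0.48 and 1.71 in large males, against -1.75 to 1.63 with a median of 0.32 in small males. The ranges overlapped widely, and the difference was 1.02 ± 0.43 (SE; limma, unadjusted p = 0.0270, adjusted p = 0.706), against 3.25 in the O. taurus head, and it was 0.64 without small male arrays 3 and 4. OtL006-A04 had a head difference of 3.57 in O. taurus and one of 0.42 ± 0.60 here (SE), with -0.48 within the Cy3 orientation, -0.068 without large male array 5 and 0.944 without large male array 4. It was 0.17 without large male array 1, 0.20 without small male array 2 and 0.16 without small male array 4. OtL013-G05 had 3.27 in the O. taurus head and 0.74 ± 0.41 here (SE), or 0.44 without small male array 3. OtL017-E05 and OtP020-G02 had -2.18 and -2.05 in the O. taurus head and -0.75 ± 0.43 and -0.35 ± 0.44 here (SE), with 0.20 for OtL017-E05 within the Cy3 orientation. Without large male array 5 OtL017-E05 was at -0.35. OtP020-G02 was at -0.80 without large male array 2, at -0.21 without array 3 and at -0.11 without array 4 of the large males, and at -0.22 without small male array 7. Of the 20 probes with the smallest p, 4 were called in the O. taurus head, OtP013-C07, OtP010-D09 and OtL002-E05 with the same sign and OtP018-H06 with the opposite one, beside 7.4% of all probes. On the direct arrays 3 of the 20 were called, beside 9 of all probes (0.234%). Those 3 are OtP013-C07, OtP010-D09 and OtL002-E05, which earlier results had chosen for O. taurus.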

How the data were processed

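The values were 1 log2 ratio per probe and array, which the authors deposited as normalised log ratios for 3840 probes and 71 arrays, with 0 missing. They were taken as log2 because limma is named in the submitters' processing notes. How background was corrected and how arrays were normalised is not given in the sources, nor is the limma version. Total RNA of each pool was amplified with T7 polymerase before dye labelling, per the labels' protocols. Values on arrays with the thorax in Cy5 carried over 6 significant digits in 99.17% of cases on the array with the fewest, and those on arrays with the thorax in Cy3 in 0%, and what was done to them before deposit is not known from this.

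The 19 O. nigriventris arrays were fitted with limma 3.58.1 in R 4.3.3 (lmFit, eBayes) with a mean per group and a dye term coded so that a group mean averages both orientations, leaving 15 residual degrees of freedom. P-values were adjusted by Benjamini-Hochberg over 3840 probes, with a threshold of 0.05. The contrast was also fitted within each orientation, and it was set against O. taurus thorax or head in fits of 31 arrays each with a dye term per species. The O. taurus contrasts came from 48 arrays in 12 groups. Fits were tested on simulated data that held no dye effect, so this did not test how the dye term takes one up. Alternatives were centring, scaling, no dye term, only the groups compared, array weights, robust eBayes, a replicate block and leaving out each male array. No single female array was left out. Leaving out small male arrays 3 and 4 together was chosen after seeing the data. The shares and slopes of tissue effects, the head lists and the largest differences by size were also chosen after seeing the data.

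Probes were named by the adjusted threshold, and, as fewer than 20 passed, by the smallest unadjusted p until 20 were named. The members, the 8 probes taken from O. taurus and the lists were chosen with earlier results of these data known. Same-numbered large and small male arrays deviated from their group means with correlations of -0.190, -0.194, 0.097, 0.106 and 0.043, so the numbers were not taken as pairs. Figures used matplotlib 3.10.9 in Python 3.11.15. The O. taurus gene table was that of assembly IU_Otau_3.0.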

Additional observations from a re-analysis of the deposited data

Results flagged for a closer look

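Of 52 sets of values tested for 1 array apart from its group, 5 had such an array. For independent sets without a dye effect chance gives about 1 in 20. The sets here share arrays, OtP012-C06 and OtP014-F12 vary together, and each set mixes both dye orientations. Nothing is therefore read from this count. In small males, OtL008-D01 stood at -1.63 on array 3 while the other 6 arrays lay between -0.36 and 0.57. Array 7 of the small males was the highest for OtP012-C06, at 2.45 against 0.75 to 1.28 on the others, and for OtP014-F12, at 2.62 against 0.53 to 1.404. OtP009-A08 was at -1.30 on small male array 5, against -0.46 to 0.14 on the others. The standard deviation of small male array 4 across probes was 0.494, against 0.934 to 1.19 on the other small male arrays.

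For 2 probes the morph difference in the O. nigriventris thorax differed from that in the O. taurus head in limma's test of the difference, where species, tissue and probe match change together. The morph difference was lower by 2.71 for OtL002-E05, a value of -2.71 on the log2 scale, and the value for OtP018-H06 was -2.09.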

How the results depend on the processing

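The count of probes called between large and small males by limma was 0 in every alternative but a pair. It was 1, OtP013-C07, with a replicate block (difference 2.57, adjusted p = 0.0172 by limma). When single male arrays were left out it ran from 0 to 1, with the 1 call again OtP013-C07, without large male array 4. Same-numbered arrays share only a number. The change of the morph difference with dye orientation gave 0 to 4 calls when single arrays were left out, with calls without large male array 1 (4), large male array 4 (2) and small male array 5 (1). The count of probes whose morph difference differed from the O. taurus head was 2, and it became 21 with scaled arrays, 32 with array weights, 15 with the replicate block, 5 without small male arrays 3 and 4, 1 with only the groups compared, 0 without a dye term, and 0 to 21 when single arrays were left out. The cause was not tested. Counts of probes that differed between thorax and abdomen stayed within 1.5 times, from 369 to 533 in large males and from 428 to 649 in small males. Of 25 named probes, 23 kept their sign in all 22 alternatives. OtL006-A04 was -0.475 within the Cy3 orientation and -0.0685 without large male array 5, with -0.0685 to 0.944 over single arrays left out, and OtL017-E05 was 0.199 within the Cy3 orientation. The number negative here among the 44 probes with an O. taurus head difference under -1 was 20 within the Cy3 orientation. The planned turning of the Cy3 ratios was not run because the deposited ratios already ran one way. The number of arrays and the scatter among them limit the precision, and the files used hold no signal over background.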
